A study of Leucoraja erinaceus with 6 samples.

Results

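The genes of the bone morphogenetic protein (BMP) and transforming growth factor beta (TGF-beta) pathway were followed in bulk RNA-seq counts of dorsal root ganglia (DRG), the paired clusters of sensory neurons and glia along the trunk, and of spinal cord from little skate (Leucoraja erinacea) embryos. They were taken by symbol: every row whose name starts as a BMP, GDF, TGF-beta, activin or inhibin ligand, one of their receptors, a SMAD, or a secreted antagonist such as noggin, chordin, gremlin or follistatin. This gave 42 genes among the 22111 rows of the table. DRG and spinal cord each had 3 libraries from untreated wild-type embryos at stage 32. Each library held the tissue of 3 to 4 pooled embryos, so error bars reflect differences among pools of mixed cell types. The question here is which of the 42 genes were higher or lower in DRG than in spinal cord.

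BMP and TGF-beta ligands are secreted dimers that bring type I and type II receptor kinases together. In vertebrates, BMP type I receptors phosphorylate SMAD1 and SMAD5, while TGF-beta and activin type I receptors phosphorylate SMAD2 and SMAD3; both sets enter the nucleus with the shared partner SMAD4, and SMAD6 and SMAD7 inhibit the relay. Secreted antagonists bind the ligands before they reach a receptor. In mouse and chick embryos, BMPs from the roof plate pattern the dorsal spinal cord, and in mouse, BMP4 from peripheral targets acts on trigeminal sensory neurons.

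Library totals were 24693555 to 29080300 counts, and protein-coding mitochondrial genes took 24.3% to 35.7% of the counts of named genes in DRG and 5.39% to 6.88% in spinal cord. Values are CPM, the counts of a gene divided by the library's scaled total. The TMM scale used here rests on the assumption that most genes do not differ between libraries. Of the 16112 genes tested below, 55.9% were called different between the tissues on this scale. On the TMM scale 3 counts equal 0.136 to 0.176 CPM in DRG libraries, against 0.0764 to 0.0888 CPM in those of spinal cord. The neuronal markers followed the labelled tissues: all 4 tested sensory neuron markers were higher in DRG, and all 3 interneuron and all 4 motor neuron markers were lower there. Of the 6 peripheral glia markers, foxd3, egr2b and s100b were higher in DRG, while sox10, mpz and plp1a were lower. No gene lengths were used, so levels are compared between tissues and not between genes. In bulk tissue, fewer cells of a type and less RNA per cell cannot be told apart.

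On the TMM scale DRG held more of the ligands bmp4 and bmp6, the BMP type I receptor bmpr1ba and the decoy receptor bambia, with log2 fold changes of 1.48 to 1.75, and more smad5. It held far more of the antagonists grem2b and fstl3 and of the matrix gene tgfbi, at 2.64 to 3.72. DRG held less of the ligands bmp2a and gdf3, the TGF-beta type I receptor tgfbr1b, the shared SMAD smad4b and the kinase bmp2k. Of these, gdf3 was a weak call that passed in 1 of 6 fits with 1 library left out. Lower in DRG too were the antagonists chrd, nog2 and chrdl2 and the follistatin-like gene fstl5, the last 2 at -2.27 each. Another 4 genes, smad1, smad2, bmper and fstl1b, were higher in DRG by 0.41 to 0.60 and below 0 on another scale. On that other scale the median of all tested genes was -0.99. Of the 42 genes, 37 passed the filter on low counts and were tested, and 21 of these (56.8%) passed edgeR's quasi-likelihood test with an adjusted p below 0.05, against 55.9% of all 16112 tested genes. In DRG 12 genes (32.4%) were higher, against 27.8% of all tested genes, and 9 (24.3%) were lower, against 28.1%. The 3 DRG and 3 spinal cord libraries did not overlap for 25 of the 37 genes (67.6%), against 65% of all tested genes, and for each of the 21 that passed. These shares lie close to those of the whole table, so the number of differing genes is no feature of the pathway. The median log2 fold change of the 37 genes, DRG over spinal cord, was 0.10, beside -0.04 for all tested genes.

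**Figure D1:**
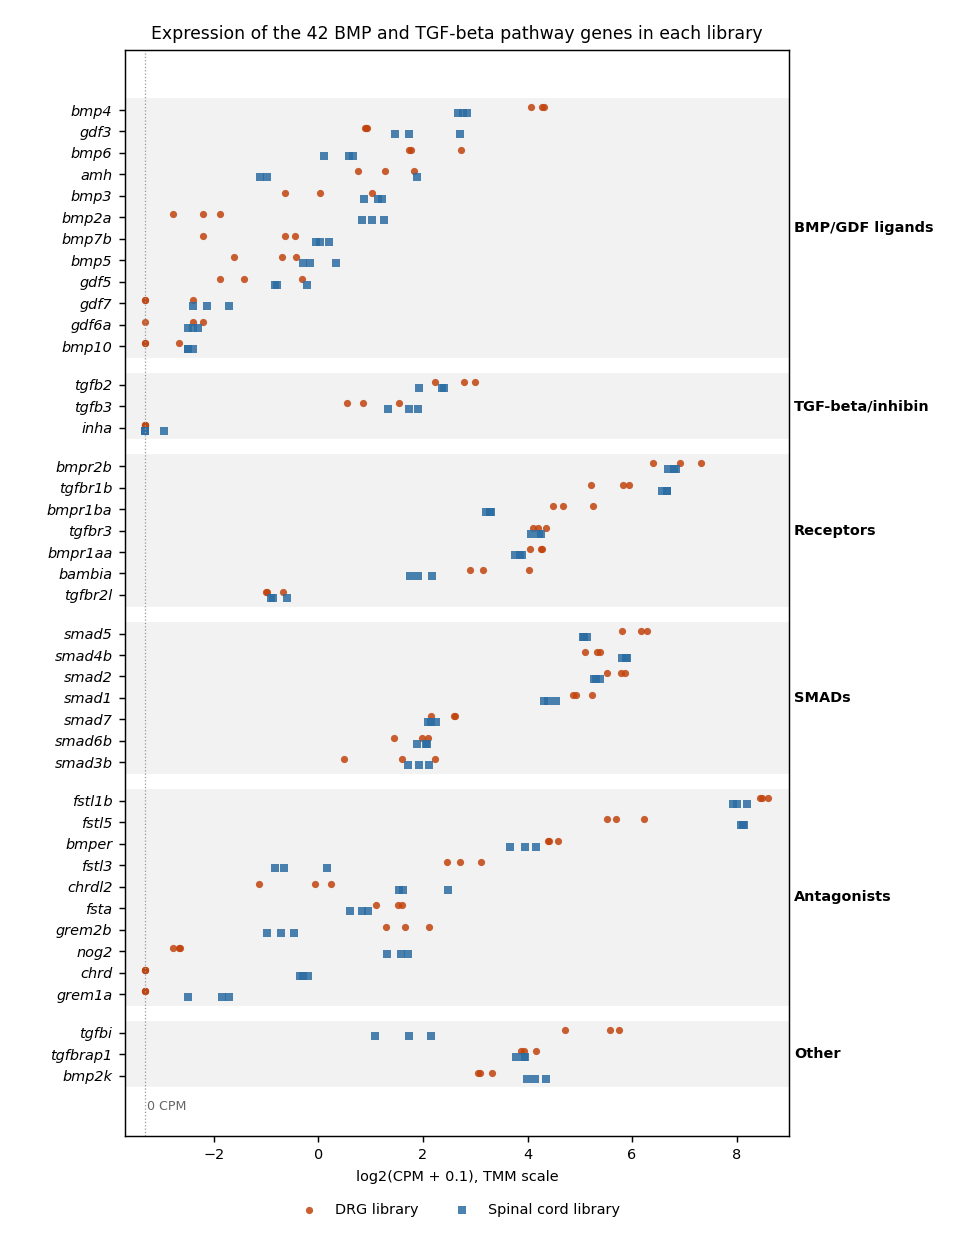
Expression of the 42 genes in each library, as log2(CPM + 0.1) on the horizontal axis, with genes grouped by role and ordered by mean level down the page; red circles are DRG libraries and blue squares spinal cord libraries, 3 each. The 2 tissues are far apart for bmp2a, nog2, chrd, fstl3, fstl5 and tgfbi and overlap for genes such as tgfbr3, smad7 and smad6b, and the dotted line marks 0 CPM.

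The choice of scale shifts every gene of a library, and it decided some of these calls. With library sizes alone the median log2 fold change of all tested genes was -0.99, and 3 of the 37 genes were called higher in DRG and 21 lower. Of the 12 genes called higher on the TMM scale, fstl3, grem2b and tgfbi were called higher on both scales. Of the other 9, bmp4, bmp6, bmpr1ba, bambia and smad5 kept their direction but did not pass, while smad1, smad2, bmper and fstl1b turned below 0. Both smad2 and fstl1b then passed as lower in DRG (-0.53 and -0.50, adjusted p = 0.0451 and 0.0280). All 9 genes called lower on the TMM scale were also called lower with library sizes alone. That setting moves log2 fold changes downward, so it could hardly undo a lower call and is no check of these 9. Relative to the median gene, the log2 fold changes with library sizes alone were 1.51 for bmp4, 1.66 for bmpr1ba and 1.06 for smad5, close to their TMM values. Subtracting the median shifts all genes by the same amount, and on the TMM scale the median was already -0.04. The closeness was therefore given in advance and is no check of these calls. Across all alternatives that tested them, 11 of the 21 calls were kept: fstl3, grem2b and tgfbi as higher in DRG, and bmp2a, chrd, nog2, chrdl2, fstl5, tgfbr1b, smad4b and bmp2k as lower. With library sizes alone set aside, 16 calls were kept. The further ones were bmp4, bmp6, bmpr1ba, bambia and smad5, all higher in DRG.

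Among the BMP and GDF ligands, bmp4 and bmp6 were the ones higher in DRG. The ligand bmp4 stood at 19.9, 16.7 and 19.2 CPM in DRG replicates 1, 2 and 3, against 6.29, 7.08 and 6.68 CPM in spinal cord replicates 1, 2 and 3. Its groups stood clearly apart, and the log2 fold change was 1.48 ± 0.17 SE (adjusted p = 0.000193). For bmp6, a ligand related to bmp5 and bmp7, the values were 3.32, 6.51 and 3.21 CPM in DRG, against 1.40, 1.48 and 0.973 CPM in spinal cord, with DRG replicate 2 highest (log2 fold change 1.75 ± 0.41 SE, adjusted p = 0.00715). In the RefSeq table bmp6 overlaps txndc5, whose reads it may share. With counts scaled by library size alone, neither bmp4 nor bmp6 passed (0.53 and 0.77, adjusted p = 0.0591 and 0.111).

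The opposite held for bmp2a, which was nearly confined to the spinal cord libraries. This gene, a close relative of bmp4 in sequence and receptor use in other vertebrates, had 3, 2 and 1 counts in DRG replicates 1, 2 and 3, or 0.172, 0.117 and 0.0452 CPM. In spinal cord it stood at 1.68, 1.92 and 2.28 CPM. Over the summed counts of 6 in DRG and 220 in spinal cord, the level in spinal cord was 18.5 times that in DRG (exact 95% interval 8.38 to 51.0), an interval that covers counting error only. The fitted log2 fold change was -4.13 ± 0.57 SE (adjusted p = 0.000508).

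Expression of gdf3, a ligand of the GDF1 and GDF3 branch that acts with nodal in early embryos, was even in DRG, at 1.77, 1.76 and 1.81 CPM, and uneven in spinal cord, at 3.21, 6.42 and 2.66 CPM. It was lower in DRG by this test (log2 fold change -1.20 ± 0.41 SE, adjusted p = 0.0356). The call of gdf3 did not hold with the pool as a block (adjusted p = 0.0664) or when any 1 library other than spinal cord replicate 3 was left out, and without spinal cord replicate 2 its log2 fold change was -0.73. For amh, the anti-Müllerian hormone that regresses the female duct in male mammals, the values were 3.43, 1.58 and 2.31 CPM in DRG, against 0.407, 3.61 and 0.358 CPM in spinal cord. Spinal cord replicate 2 stood above every DRG library, so that the tissues overlapped (adjusted p = 0.496). Without that library amh was higher in DRG, at a log2 fold change of 2.65 (adjusted p = 0.0105).

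The other tested ligands of this group were low and did not pass. Their log2 fold changes were -0.85 for bmp3, -0.95 for bmp5, -1.12 for bmp7b and -0.58 for gdf5, with adjusted p of 0.189, 0.168, 0.147 and 0.466. The libraries of bmp5 and bmp7b did not overlap all the same, at 0.226 to 0.645 CPM in DRG, against 0.713 to 1.15 CPM in spinal cord for bmp5, and 0.117 to 0.629 CPM in DRG, against 0.865 to 1.05 CPM in spinal cord for bmp7b. For bmp3, 1 DRG library decided the outcome: it had 0.915, 1.93 and 0.542 CPM in DRG, against 2.11, 2.22 and 1.74 CPM in spinal cord, and without DRG replicate 2 its log2 fold change was -1.49 (adjusted p = 0.0284). Another 3 ligands were too low to test. The roof plate ligand of mouse and chick, gdf7, had 2 counts in all DRG libraries together and 16 in spinal cord, a ratio of 4.04 in favour of spinal cord with an exact 95% interval of 0.95 to 36.2. For gdf6a the summed counts were 4 in DRG and 10 in spinal cord, and for the cardiac ligand bmp10 they were 1 in DRG and 9 in spinal cord. A difference in gdf7, gdf6a or bmp10 was therefore not detectable at this depth. Of the 4 roof plate markers, lmx1al and wnt1 had no count in any DRG library, against at most 0.326 and 0.178 CPM in spinal cord, wnt3a had none in either tissue, and msx1a had at most 0.645 CPM in DRG, against 0.486 CPM in spinal cord. The part of the roof plate in these levels was not tested.

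Both TGF-beta ligands were counted in every library, and neither passed the test. For tgfb2 the values were 7.83, 6.80 and 4.56 CPM in DRG, against 5.06, 5.21 and 3.69 CPM in spinal cord, which overlap (log2 fold change 0.46 ± 0.29 SE, adjusted p = 0.215). For tgfb3 they were 1.72, 2.81 and 1.36 CPM in DRG, against 2.42, 3.64 and 3.23 CPM in spinal cord (log2 fold change -0.66 ± 0.39 SE, adjusted p = 0.182). The inhibin alpha gene inha had 1 count in 1 spinal cord library and none elsewhere.

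A BMP and a TGF-beta type I receptor gene lay on different sides. Of 7 tested receptor genes, 2 were higher in DRG, 1 was lower, and 4 did not pass (median log2 fold change 0.16). Of all tested genes, 27.8% were higher in DRG and 28.1% were lower. The BMP type I receptor bmpr1ba stood at 25.4, 22.2 and 38.1 CPM in DRG, against 9.82, 9.62 and 9.09 CPM in spinal cord. The DRG libraries were more than double the spinal cord ones, with replicate 3 the highest (log2 fold change 1.59 ± 0.22 SE, adjusted p = 0.000490). The means ± SD of the 3 libraries were 28.6 ± 8.38 CPM in DRG, against 9.51 ± 0.38 CPM in spinal cord. The related BMP type I receptor bmpr1aa had 19.1, 16.5 and 19.3 CPM in DRG, against 13.4, 14.4 and 14.8 CPM in spinal cord, which did not overlap but missed the threshold (log2 fold change 0.36 ± 0.15 SE, adjusted p = 0.0682).

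The TGF-beta type I receptor tgfbr1b went the other way. It stood at 61.7, 37.1 and 57.0 CPM in DRG, against 102, 102 and 94.5 CPM in spinal cord, with every DRG library below every spinal cord library (log2 fold change -0.94 ± 0.20 SE, adjusted p = 0.00427). The BMP type II receptor bmpr2b, which had the highest mean CPM of the receptor genes, did not differ detectably. It ranged from 85 CPM in DRG replicate 2 to 160 CPM in DRG replicate 3, which spans the 103 to 114 CPM of spinal cord (log2 fold change 0.16 ± 0.22 SE, adjusted p = 0.571). The direction for bmpr2b turned without DRG replicate 3, at -0.10. No difference was detectable for tgfbr3, the betaglycan co-receptor, at 17.1 to 20.3 CPM in DRG, against 16.7 to 19.0 CPM in spinal cord (adjusted p = 0.839), nor for the low TGF-beta type II receptor-like gene tgfbr2l, at 0.40 to 0.528 CPM in DRG, against 0.435 to 0.560 CPM in spinal cord (adjusted p = 0.856).

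The decoy receptor gene bambia, which in vertebrates lacks a kinase domain and damps BMP and TGF-beta signals, was higher in DRG. It had 8.81, 16.3 and 7.32 CPM in DRG, against 4.43, 3.64 and 3.25 CPM in spinal cord (log2 fold change 1.52 ± 0.34 SE, adjusted p = 0.00587). The highest value, as for bmp6, was that of DRG replicate 2. That library also had the highest summed level of the 5 connective tissue markers, at 3464 CPM, against 2353 and 1419 CPM in DRG replicates 1 and 3 and 121 to 156 CPM in spinal cord. The 4 blood markers summed to 127, 149 and 72.1 CPM in DRG replicates 1, 2 and 3, against 19.3 to 21.2 CPM in spinal cord. The 3 muscle markers summed to 13.2, 32.3 and 8.63 CPM in DRG, against 6.03 to 6.42 CPM in spinal cord. Nearly all of these sums was neb, at 13.1, 31.5 and 8.41 CPM in DRG and 5.98 to 6.39 CPM in spinal cord. The muscle markers myod1 and myf5 were too low to be tested. The 6 peripheral glia markers summed to 4307, 7546 and 3960 CPM in DRG, against 27707 to 36413 CPM in spinal cord. Within this sum, mpz alone gave 1903, 3944 and 2086 CPM in DRG and 26719 to 35534 CPM in spinal cord. Since foxd3, egr2b and s100b were higher in DRG, the sum does not measure the amount of peripheral glia. Replicate 2 was the highest DRG library for these 4 sums, but not for every list or marker. The endothelium markers summed to 65.5, 54.5 and 39.9 CPM in DRG replicates 1, 2 and 3. Spinal cord libraries had 38.0 to 46.7 CPM, so the tissues overlapped. Of the endothelium markers, kdr was higher in DRG and tie1 lower (log2 fold changes 1.80 and -1.19), and 3 did not pass. Of the 4 blood markers, 3 were higher in DRG than in spinal cord, and spi1b was lower (log2 fold change -1.27, adjusted p = 0.0496). Among the DRG libraries alone, rhag and lmo2 were highest in replicate 1, and ptprc and spi1b in replicate 2. Both bambia and bmp6 also passed without DRG replicate 2. In that fit the connective tissue, blood and muscle sums of DRG replicates 1 and 3 still lay above those of spinal cord. The part of the cells that these markers stand for in the levels of bambia and bmp6 was not tested.

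**Figure D2:**
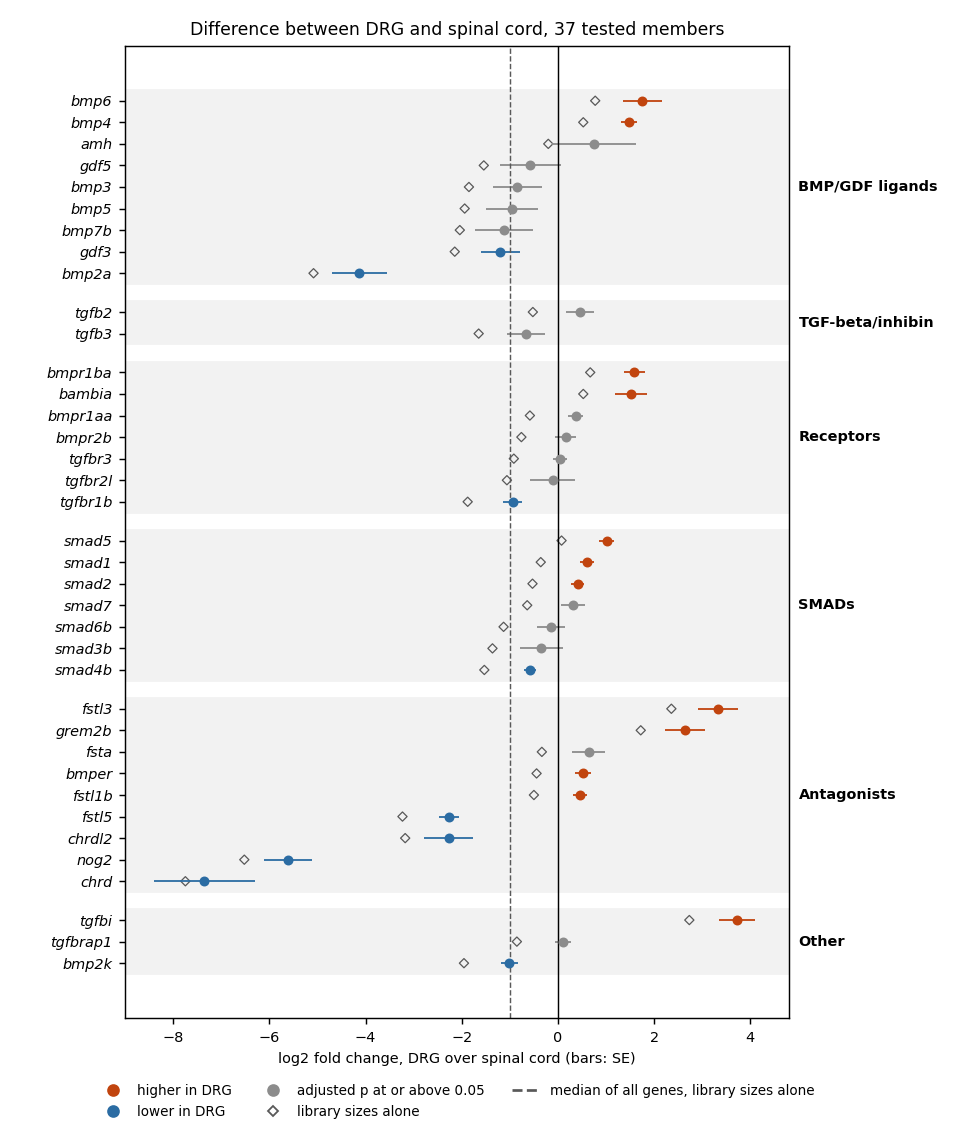
Fitted log2 ratio of DRG to spinal cord for the 37 tested genes by role; filled circles with SE bars use the TMM scale, coloured by call, and open diamonds use library sizes alone, with the median of all genes on that scale as a dashed line. The diamonds lie to the left of the circles by about the same distance, so that tgfbi, fstl3 and grem2b stay well to the right of 0, smad5 falls close to 0 and smad1, smad2, bmper and fstl1b cross it; no size can be read from chrd, which had no count in DRG.

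Among the SMAD genes, smad1, smad2 and smad5 were higher in DRG on the TMM scale, and the shared smad4b was lower. Of the 3 higher ones, smad5 alone kept its direction with library sizes alone. Of 7 tested, 3 were higher in DRG, 1 was lower, and 3 did not pass (median log2 fold change 0.30). Of all tested genes, 27.8% were higher in DRG and 28.1% were lower. The BMP-branch gene smad5 stood at 71.9, 56.2 and 77.5 CPM in DRG, against 33.2, 35.0 and 33.7 CPM in spinal cord. Every DRG library lay above every spinal cord library (means ± SD of 68.5 ± 11 CPM in DRG, against 34.0 ± 0.930 CPM in spinal cord; log2 fold change 1.01 ± 0.15 SE, adjusted p = 0.000774). For smad1, the other BMP-branch SMAD, the values were 37.5, 29.1 and 30.2 CPM in DRG, against 23.1, 20.9 and 19.8 CPM in spinal cord (log2 fold change 0.60 ± 0.15 SE, adjusted p = 0.0102), but with library sizes alone it turned to -0.36. The call of smad1 was lost without spinal cord replicate 3 (adjusted p = 0.0507).

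The TGF-beta and activin branch showed smaller differences. For smad2 the values were 54.9, 45.8 and 58.3 CPM in DRG, against 41.6, 38.3 and 39.5 CPM in spinal cord (log2 fold change 0.41 ± 0.14 SE, adjusted p = 0.0334), a direction that turned to -0.53 with library sizes alone. The call of smad2 was lost with the pool as a block (adjusted p = 0.0582) and without any 1 library other than DRG replicate 2. For smad3b the DRG libraries scattered widely, at 2.92, 4.57 and 1.31 CPM, around the 3.72, 3.20 and 4.22 CPM of spinal cord (adjusted p = 0.540).

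The shared partner smad4b was the SMAD that was lower in DRG. It had 40.1, 34.4 and 41.6 CPM in DRG, against 59.6, 55.6 and 59.1 CPM in spinal cord, with no overlap (log2 fold change -0.59 ± 0.13 SE, adjusted p = 0.00576). The inhibitory SMADs did not differ detectably: smad6b had 2.62 to 4.16 CPM in DRG, against 3.61 to 4.10 CPM in spinal cord (adjusted p = 0.688), and smad7 had 4.35 to 6.01 CPM in DRG, against 4.20 to 4.63 CPM in spinal cord (adjusted p = 0.333). In the RefSeq gene table of the assembly Leri_hhj_1, smad6b and smad3b are direct neighbours, the 1 such pair among these genes, and neither passed.

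Since a scaling factor moves all genes of a library together, counts of 2 genes were also divided within each library, which no scaling changes. These 4 ratios were chosen after the values were seen, and only their difference between tissues is read. The counts of bmpr1ba over bmpr1aa were 1.33, 1.35 and 1.97 in DRG, against 0.732, 0.669 and 0.613 in spinal cord. The counts of tgfbr1b over the sum of bmpr1aa and bmpr1ba were 1.39, 0.959 and 0.994 in DRG, against 4.39, 4.24 and 3.95 in spinal cord, a mean 3.77 times as large in spinal cord. Other type I receptor genes, such as those of activin, are not analysed here, so the ratio speaks of these 3 genes alone.

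The counts of smad1 and smad5 over those of smad2 and smad3b were 1.89, 1.69 and 1.81 in DRG, against 1.24, 1.35 and 1.22 in spinal cord (means ± SD of 1.80 ± 0.0999 in DRG, against 1.27 ± 0.0666 in spinal cord). Between the activin-binding antagonists, the counts of fstl3 over fsta were 2.2, 3.09 and 2.67 in DRG, against 0.714, 0.316 and 0.254 in spinal cord. None of the 4 ratios overlapped between tissues. Each had a two-sided exact permutation p of 0.1, and 0.1 after adjustment over the 4. That is the smallest p that 3 against 3 libraries can give. As the ratios were chosen after the values were seen, neither the lack of overlap nor the p is an independent test.

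**Figure D3:**
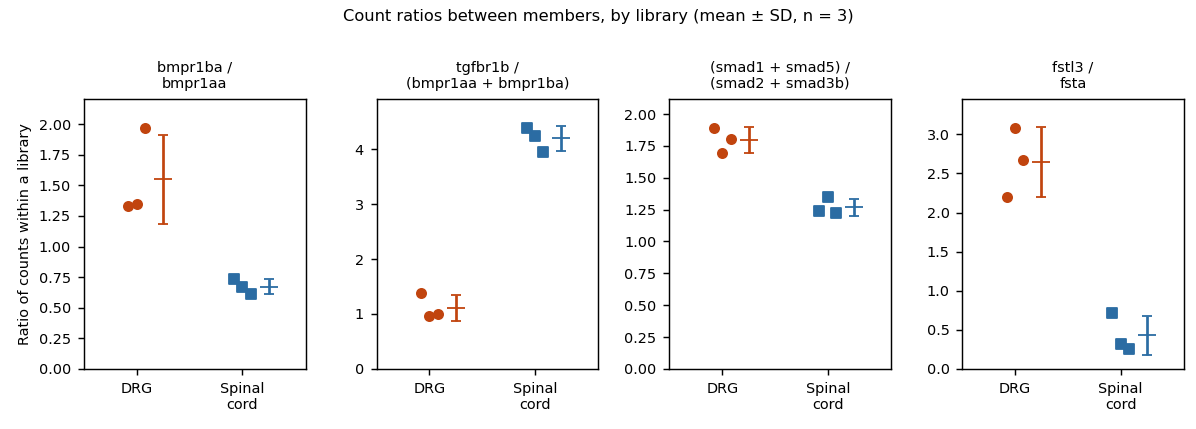
Ratios of counts between pathway genes within each library, in 4 panels with axes from 0; red circles are the 3 DRG libraries, blue squares the 3 spinal cord libraries, and the bars give the mean and SD. In each panel the tissues stand apart, and the DRG libraries are lower only for tgfbr1b over the BMP type I receptors.

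Large differences in both directions were found among the extracellular antagonists. Of 9 tested, 4 were higher in DRG, 4 were lower, and fsta did not pass, while the libraries of all 9 did not overlap (median log2 fold change 0.46, also with chrd set to its bound). Of all tested genes, 27.8% were higher in DRG, 28.1% were lower and 65% did not overlap. The counts of these 9 genes were not tested against those shares. Chordin and noggin bind BMPs with high affinity and keep them from their receptors. The genes chrd and nog2 had at most 1 count in any DRG library. Only nog2 carried a noggin symbol, and noggin copies without one are not analysed here. The chordin gene chrd had no count in any DRG library, against 0.687, 0.710 and 0.768 CPM in spinal cord. With 3 counts per DRG library as the floor, its level was at least 4.48-fold lower there than in spinal cord (adjusted p = 0.00167). The noggin gene nog2 had 1 count in each DRG library, or 0.0572, 0.0586 and 0.0452 CPM, against 2.90, 2.37 and 3.17 CPM in spinal cord. Over the summed counts of 3 in DRG and 318 in spinal cord, the level in spinal cord was 53.6 times that in DRG (exact 95% interval 18.2 to 261), and the fitted log2 fold change was -5.61 ± 0.51 SE (adjusted p = 6.37e-05).

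Both other genes of this role that were lower in DRG showed the same order of tissues in every library. The chordin-like gene chrdl2 had 0.858, 0.352 and 1.08 CPM in DRG, against 5.45, 2.96 and 2.82 CPM in spinal cord (log2 fold change -2.27 ± 0.51 SE, adjusted p = 0.00584). The follistatin-like gene fstl5, placed in this role by its name alone, stood at 75.3, 45.7 and 51.6 CPM in DRG, against 282, 270 and 279 CPM in spinal cord. Its spinal cord libraries lay within a narrow band, and its log2 fold change was -2.27 ± 0.20 SE (adjusted p = 6.29e-05). The gremlin gene grem1a, a BMP antagonist of limb buds in mouse and chick, had no count in DRG and 17 in the 3 spinal cord libraries together, too few to be tested. The 4 floor plate markers summed to 7.72 to 16.4 CPM in DRG, against 104 to 114 CPM in spinal cord. Most of these sums was ntn1a, at 7.61 to 16.2 CPM in DRG and 98.5 to 109 CPM in spinal cord. All 3 tested floor plate markers were lower in DRG, with shha and foxa2 at 0 in DRG replicates 2 and 3, and their part in the levels of chrd and nog2 was not tested.

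In the other direction, fstl3 and grem2b marked DRG. The activin-binding glycoprotein gene fstl3 stood at 6.41, 8.50 and 5.42 CPM in DRG, against 1.02, 0.533 and 0.461 CPM in spinal cord. Each DRG library was several times above each spinal cord library (means ± SD of 6.78 ± 1.57 CPM in DRG, against 0.671 ± 0.303 CPM in spinal cord; log2 fold change 3.32 ± 0.41 SE, adjusted p = 0.000299). The gremlin gene grem2b, whose product binds BMP2 and BMP4 in other vertebrates, had 3.03, 2.35 and 4.25 CPM in DRG, against 0.407, 0.622 and 0.512 CPM in spinal cord (log2 fold change 2.64 ± 0.42 SE, adjusted p = 0.00100).

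The remaining antagonists differed little. The BMP-binding regulator bmper had 21.0, 23.8 and 20.8 CPM in DRG, against 12.5, 15.4 and 17.9 CPM in spinal cord (log2 fold change 0.52 ± 0.17 SE, adjusted p = 0.0329; -0.44 with library sizes alone). For fstl1b, a secreted glycoprotein gene and the one with the highest mean CPM of this role, the values were 387, 359 and 348 CPM in DRG, against 296, 243 and 259 CPM in spinal cord (log2 fold change 0.46 ± 0.14 SE, adjusted p = 0.0237; -0.50 with library sizes alone). Left-out libraries ended both calls: that of bmper without DRG replicate 1 or 2 or spinal cord replicate 1 or 2 (adjusted p = 0.0704 to 0.113 over these fits), and that of fstl1b without DRG replicate 1 or spinal cord replicate 2 or 3 (adjusted p = 0.0875, 0.122 and 0.101). Follistatin, fsta, had 2.92, 2.76 and 2.03 CPM in DRG, against 1.43, 1.69 and 1.82 CPM in spinal cord, which did not overlap but did not pass (log2 fold change 0.64 ± 0.34 SE, adjusted p = 0.143).

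A last group holds genes named for the pathway that are no part of its core relay. The secreted matrix gene tgfbi, induced by TGF-beta in mammalian cells, had the largest positive log2 fold change of the 37 tested genes. It stood at 53.6, 47.4 and 26.1 CPM in DRG, against 4.38, 3.23 and 2.02 CPM in spinal cord (means ± SD of 42.4 ± 14.4 CPM in DRG, against 3.21 ± 1.18 CPM in spinal cord; log2 fold change 3.72 ± 0.37 SE, adjusted p = 9.89e-05). Of the 5 connective tissue markers, 4 were also higher in DRG and pdgfrb was lower, and their part in the levels of tgfbi, fstl3 and grem2b was not tested. These 5 markers summed to 2353, 3464 and 1419 CPM in DRG replicates 1, 2 and 3, against 121 to 156 CPM in spinal cord.

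The kinase gene bmp2k, named for its induction by BMP2 in mouse bone cells, was lower in DRG, at 8.18, 8.44 and 9.90 CPM against 17.5, 15.7 and 20.2 CPM in spinal cord (log2 fold change -1.01 ± 0.18 SE, adjusted p = 0.00179). No difference was detectable for tgfbrap1, which encodes a receptor-associated protein, at 14.7 to 17.8 CPM in DRG, against 13.6 to 15.5 CPM in spinal cord (adjusted p = 0.604).

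The spread between libraries was that of the table as a whole: the median coefficient of variation of the 37 genes was 24.2% in DRG and 12.4% in spinal cord, beside 24.3% and 12.7% for all tested genes.

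Genes around the pathway were followed in 3 further lists that exclude the 42 genes. Of 10 tested transcriptional targets known from other vertebrates, 1 was higher in DRG and 3 were lower (median log2 fold change -0.07). Of all tested genes, 27.8% were higher in DRG and 28.1% were lower, and the counts of the 3 lists were not tested against these shares. The ID genes, common readouts of BMP signalling, did not pass: id1 had 22 to 40.5 CPM in DRG, against 35.9 to 47.0 CPM in spinal cord (adjusted p = 0.277), id2a had 44.1 to 82.1 CPM in DRG, against 51.5 to 62.2 CPM in spinal cord (adjusted p = 0.530), and id4 had 75.8 to 116 CPM in DRG, against 63.9 to 80.6 CPM in spinal cord (adjusted p = 0.0508). The ID genes and msx3 below were singled out after their values were seen. The target with the widest difference was atoh8, a helix-loop-helix factor gene, at 0.172, 0.176 and 0.497 CPM in DRG against 11.2, 13.3 and 11.4 CPM in spinal cord (log2 fold change -5.33 ± 0.42 SE, adjusted p = 3.45e-05). The immediate early gene junba was higher in DRG (1.71 ± 0.13 SE, adjusted p = 2.55e-05), while msx3 and the SMAD co-repressor gene skila were lower (-3.06 and -0.59, adjusted p = 0.0235 and 0.0181). The gene skila also stands in the list of intracellular regulators below. The list of targets had 2 calls instead of 4 without spinal cord replicate 2 or 3, and 4 higher calls instead of 1 without DRG replicate 3. Among the DRG libraries, replicate 3 had the lowest values of id1, id2a and id4, at 22, 44.1 and 75.8 CPM. The ID genes are therefore not shown to be unchanged.

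Of 22 tested extracellular regulators, such as latent binding proteins, processing proteases and co-receptors, 7 were higher in DRG, 9 were lower and 6 did not pass (median -0.44). The shares of all tested genes were 27.8% higher and 28.1% lower. The repulsive guidance molecules, BMP co-receptors, parted: rgma stood at 0.743, 1.29 and 1.81 CPM in DRG, against 10.8, 11.3 and 11.5 CPM in spinal cord (log2 fold change -3.11 ± 0.34 SE, adjusted p = 0.000150). The related gene rgmb had 221, 176 and 238 CPM in DRG, against 97.2, 126 and 138 CPM in spinal cord (log2 fold change 0.81 ± 0.18 SE, adjusted p = 0.00602), and turned to -0.13 with library sizes alone. The chordin-domain genes vwc2 and vwc2l were lower in DRG (-2.40 and -2.12, adjusted p = 0.000562 and 0.000202). The latency-activating thbs1b and the BMP-binding twsg1a were higher (1.68 and 1.55, adjusted p = 0.000235 and 0.0142), the second of which lost its call without spinal cord replicate 2 or 3 (adjusted p = 0.0511 and 0.0564).

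Of 12 tested intracellular regulators, 1 was higher in DRG, 6 were lower and 5 did not pass (median -0.46). The shares of all tested genes were 27.8% higher and 28.1% lower. The SMAD ubiquitin ligase gene smurf1 had 7.38, 4.22 and 7.91 CPM in DRG, against 47.7, 35.4 and 33.5 CPM in spinal cord (log2 fold change -2.57 ± 0.27 SE, adjusted p = 0.000119). Its relative smurf2 had 18.3 to 28.1 CPM in DRG, against 26.6 to 28.9 CPM in spinal cord and did not pass (adjusted p = 0.194). The ligase genes nedd4l and trim33 were lower in DRG (-1.24 and -1.14, adjusted p = 0.000487 and 0.000203), and the ligase gene rnf111 did not pass, at 0.38 (adjusted p = 0.0595). The TAK1 adaptor gene tab2 was the one higher in DRG (0.46, adjusted p = 0.0138; -0.48 with library sizes alone), a call lost without spinal cord replicate 2 or 3 (adjusted p = 0.0689 and 0.0518). Without spinal cord replicate 2, 4 genes of this list were called instead of 7.

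**Figure D4:**
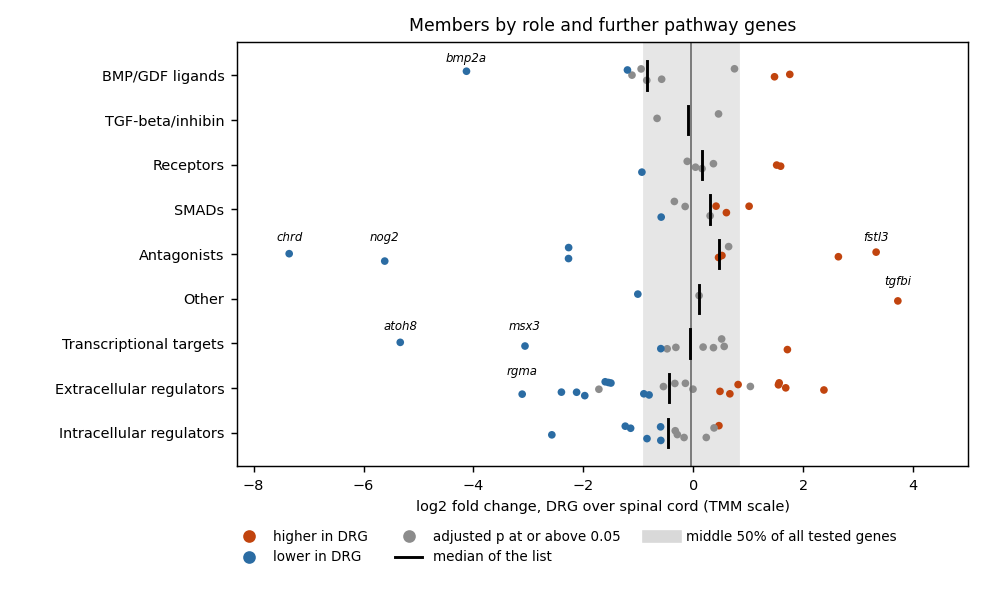
Log2 ratio of DRG to spinal cord for the pathway genes by role and of the 3 further lists; each point is a gene coloured by its call on the TMM scale, black bars are list medians, the grey line is the median of all tested genes and the grey band holds their middle 50%. Leaving chrd aside, the antagonists reach from nog2 at -5.61 to fstl3 at 3.32, and the list medians lie between -0.85 and 0.46; the point of chrd gives no size, since it had no count in DRG.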

How the data were processed

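Per the labels' protocols, stranded polyA libraries of both tissues were sequenced with paired-end reads. The authors deposited raw whole-number counts per gene, and the submitters' processing notes name Trimmomatic, HISAT2 2.2.0, SAMtools, featureCounts and edgeR 4.4; the genome build, annotation and strand setting are not given in the sources used here. All 42 symbols matched the RefSeq table of Leri_hhj_1, where 8 of them (bmp5, bmp6, bmp7b, bmpr2b, smad7, bmper, fstl1b and bmp2k) overlap another gene, whose reads may not be told apart. Reads shared with paralogs under LOC identifiers are uncertain too. Receptor, ligand and antagonist genes that carry no symbol of the pathway are not analysed here.

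Rows naming no gene (24, 1.02% to 2.04% of counts) were left out. Genes kept by filterByExpr were tested for tissue with edgeR 4.0.16 under R 4.3.3 (TMM factors, then glmQLFit and glmQLFTest), with Benjamini-Hochberg adjustment over all 16112 tested genes. The SE is the log2 fold change divided by the square root of F. Symbols of lists were matched with a suffix where needed. Where DRG had no count, a fold is a bound against 3 counts per library; summed counts of low genes carry exact 95% binomial intervals, which cover counting error only, as reads are not independent molecules.

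The labels give the same pool ID, repeated as a batch number (815, 816 or 818), to 1 DRG and 1 spinal cord library each, and this number was taken to pair them. Deviations from the tissue means correlated at 0.51, -0.25 and -0.15 across genes. The block was an alternative, since the series text names none; no test within a pool was made, since each has 1 DRG and 1 spinal cord library. Other alternatives were RLE and upper quartile factors, library sizes alone, DESeq2 1.42.0, limma voom (3.58.1), no filter, at least 10 counts in every library, and each library left out.

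Library values are given for genes with a log2 fold change of at least 2 in size and 5 CPM or more on average in the tissue with more, for the highest gene of each role, and for those whose call moved; of each further list, up to 3 genes per direction. Other genes were named after their values were seen. The genes and lists were chosen with earlier results of these data known. Figures used matplotlib 3.10.9.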

Additional observations from a re-analysis of the deposited data

How the results depend on the processing

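The number of pathway genes that differed, 21, was 15 to 24 under the alternatives that keep all libraries: 20 with upper quartile factors, with voom and with no filter, 21 with RLE factors, 22 with DESeq2 and 24 with library sizes alone. It was 15, with 5 lower in DRG instead of 9, where 10 counts were required in every library: bmp2a, chrd, chrdl2 and nog2 were then not tested, and smad2 and bmper were tested and did not pass. It was 17 to 21 with 1 library left out. With the replicate block it was 19, all among the 21, and the calls of gdf3 and smad2 were the ones lost. Library sizes alone gave 3 pathway genes higher in DRG and 21 lower, and 1692 and 9190 of all genes, and the median of all tested genes was then -0.99, against -0.04 on the TMM scale. With library sizes alone the log2 fold changes of 12 pathway genes and of rgmb and tab2 reversed, to -0.20 for amh, -0.44 for bmper, -0.58 for bmpr1aa, -0.76 for bmpr2b, -0.335 for fsta, -0.50 for fstl1b, -0.36 for smad1, -0.53 for smad2, -0.64 for smad7, -0.52 for tgfb2, -0.92 for tgfbr3, -0.85 for tgfbrap1, -0.13 for rgmb and -0.48 for tab2. The further lists moved too: targets had 8 calls, extracellular regulators 2 higher and 14 lower, and intracellular regulators 12 lower and 0 higher. The near-zero tgfbr3 was -0.017 with upper quartile factors and -0.043 with the stricter minimum. With 1 library left out, 4 genes that did not pass changed sign: tgfbr3 (-0.0394 to 0.0867), tgfbr2l (-0.25 to 0.0115), bmpr2b (-0.10 to 0.36) and smad6b (-0.29 to 0.0163), and the cause was not tested. With the stricter minimum the targets had 2 calls. For genes near 3 counts per library, depth limits what can be read.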
